A study of Arabidopsis thaliana with 12 samples.

Results

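The plastid genome of Arabidopsis thaliana was examined through the 69 of its genes that had a probe set listed for a single gene on single-colour Affymetrix arrays. Members were taken by genome: every gene that the RefSeq gene table places on the plastid chromosome was kept, with its probe set of highest mean, and each of the 69 had only 1 such probe set. All 69 encode proteins. They were part of 13356 genes tested. Genes present in 2 copies in the inverted repeat, such as ndhB and ycf2, are listed with 2 genes per probe set and were kept apart.

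RNA came from whole seedlings aged 14 days of the wild-type accession Col-0 or of plants with slim1-1, an allele of the transcription factor gene SLIM1, which acts in the response to sulfur limitation. The seedlings of both genotypes were on minimal medium and were exposed to 20 µM arsenite, As(III), or to 100 µM cadmium, with 3 biological replicates in each of the 4 groups. The protocol text gives 12 days without metal and then 48 h for arsenite, and names no cadmium. No untreated group was analysed here, so every value below is from metal-exposed seedlings.

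A plastid genome keeps genes for core subunits of the photosynthetic complexes, for the large subunit of Rubisco, and for part of the plastid's own transcription and translation machinery. These genes are read by a bacterial-type RNA polymerase, whose core the plastid encodes, and by a phage-type polymerase encoded in the nucleus. Many are transcribed together in long precursors that are then cut and trimmed. Unlike nuclear messengers, plastid messengers carry no stable poly(A) tail. The labels describe the labelling as the standard protocol of the array maker without naming a primer.

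All levels below are the deposited log2 values. Array medians lay between 6.85 and 6.94 for arsenite and between 5.58 and 5.64 for cadmium, so the sets were not normalized together, and genotypes were compared within a metal. Across all genes, Pearson's r between replicate arrays was 0.992 to 0.997. Across the 69 plastid genes, slim1-1 was close to wild type under both metals, with a small displacement to lower values. Under arsenite 56 of 69 genes had a lower fitted level in the mutant (81.2%, against 47.2% of all other genes), and under cadmium 55 of 69 did (79.7%, against 53.2%). The median difference was -0.12 under arsenite, where all other genes had 0.01, and -0.12 under cadmium, where all other genes had -0.01. Of the 69 genes, 46 (66.7%) were lower under both metals, as were 27.7% of other genes. Plastid genes share transcripts and move together from array to array, so these counts are descriptions and carry no p-value.

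No single plastid gene passed the test under either metal. With limma and Benjamini-Hochberg adjustment over all genes, 0 of 69 passed an adjusted p of 0.05 under arsenite, where 1.05% of all genes passed (0.591% lower in the mutant), and 0 of 69 passed under cadmium, where 12.3% of all genes passed (5.71% lower). At an unadjusted p under 0.05, 4 members (5.8%) were lower and 1 (1.45%) was higher under arsenite. Under cadmium 3 members (4.35%) were lower and 0 higher. For comparison, 5.81% of all genes were lower and 7.04% higher at that level under arsenite, and 13.1% were lower and 13.1% higher under cadmium. The smallest adjusted p was 0.153 under arsenite, for accD, and 0.0836 under cadmium, for ndhE. The test was less precise for these genes than for others. The median standard error of a genotype difference was 0.17 for members and 0.09 for other genes, and the median 95% confidence interval of a member reached 0.38 to either side. A 2-fold difference, 1 on the log2 scale, lay inside the interval of 4 members under arsenite and 5 under cadmium.

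Replicate arrays of a group differed in nearly all plastid genes at once. In wild type under arsenite, replicate 3 had the lowest value of its group for 68 of 69 members, and in slim1-1 under arsenite replicate 3 had it for 66 of 69. Among other genes the same arrays were lowest for 34.2% and 30.3%. Against the mean of replicates 1 and 2, replicate 3 lay lower by a median of -0.54 over members in wild type and -0.32 in slim1-1, while other genes had medians of 0.00 and 0.03. In slim1-1 under cadmium replicate 1 was lowest for 52 of 69 members, and in wild type under cadmium replicate 3 was lowest for 49 and replicate 2 for 0. Around the group means, a single component held 72.8% of the residual variance of the 69 genes, with the same sign in 69 of 69. In all other genes the first component held 28.3%. The median residual SD of members was 0.29 under arsenite and 0.17 under cadmium, against 0.10 and 0.11 for other genes.

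**Figure D1:**
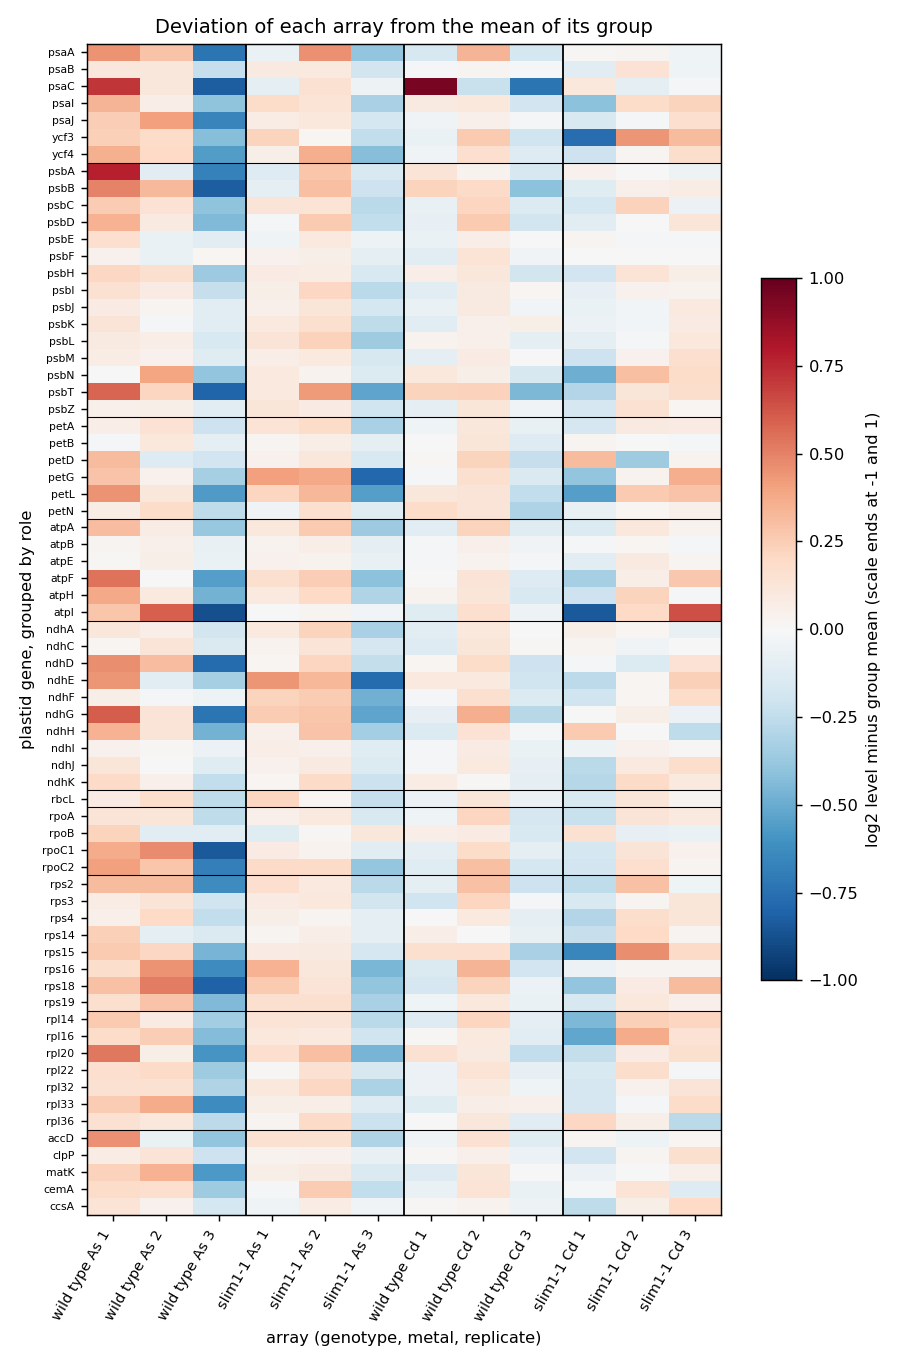
Log2 level minus the mean of its own group for each of the 69 plastid genes (rows, grouped by role) on each of the 12 arrays (columns). Blue columns mark arrays on which most members lay below the group mean. These were 68 of 69 on replicate 3 of each genotype under arsenite. Under cadmium they were 62 on replicate 3 and 44 on replicate 1 of wild type, and 57 on replicate 1 of slim1-1.

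The height of plastid genes on an array can be given as their median minus the median of all other genes of that array. Under arsenite this was 4.59, 4.21 and 3.68 in wild type and 3.89, 4.13 and 3.70 in slim1-1, for replicates 1 to 3. The groups overlapped, and the lowest array of all was wild-type replicate 3. Under cadmium it was 4.49, 4.70 and 4.50 in wild type and 4.08, 4.47 and 4.54 in slim1-1. The groups overlapped here too, with mutant replicate 3 above wild-type replicates 1 and 3. The group means were 4.16 ± 0.45 and 3.91 ± 0.21 under arsenite, and 4.56 ± 0.12 and 4.37 ± 0.25 under cadmium (SD, n = 3, wild type first), so the genotypes differed by about the spread of the replicates or less. The median difference of members beyond other genes, -0.13 under arsenite, was -0.31 without wild-type replicate 3, -0.21 without mutant replicate 2 and -0.02, -0.04 or -0.07 without mutant replicate 3, wild-type replicate 1 or wild-type replicate 2. Under cadmium it was -0.11, and -0.16 without mutant replicate 2, -0.02 without mutant replicate 1 or -0.05 without wild-type replicate 2. The sign was negative in each case, but the size rested on single arrays.

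The 25S rRNA control probe set, which reports another RNA without a poly(A) tail, was read on the same arrays. Its level under arsenite was 11.62, 11.87 and 10.72 in wild type and 10.71, 11.30 and 11.10 in slim1-1. Under cadmium it was 10.27, 10.65 and 10.37 in wild type and 9.45, 10.12 and 9.66 in slim1-1. Replicate 2 was highest in 25S rRNA in each of the 4 groups. In wild type under arsenite and in slim1-1 under cadmium the array lowest in plastid genes was also lowest in 25S rRNA. In wild type under cadmium 25S rRNA was lowest on replicate 1, where the plastid median was nearly that of replicate 3, but more members were lowest on replicate 3. In slim1-1 under arsenite, plastid genes were lowest on replicate 3 and 25S rRNA was lowest on replicate 1. The mean of 25S rRNA was lower in slim1-1 by -0.37 under arsenite and by -0.68 under cadmium, and under cadmium the groups did not overlap. The 3′ minus 5′ signal of control transcripts, a sign of RNA integrity and labelling, also differed between genotypes for some transcripts, but not all in the same direction. Under cadmium that of actin was 3.71 to 3.97 in slim1-1 and 3.53 to 3.61 in wild type. Under arsenite that of GAPDH was 0.76 to 0.91 in slim1-1 and 0.93 to 0.99 in wild type, and that of ubiquitin 0.88 to 0.95 and 0.78 to 0.83. These groups did not overlap, whereas actin under arsenite and the other transcripts under cadmium overlapped. The part of 25S rRNA and of these signals in the displacement of plastid genes was not tested. In whole seedlings, fewer green cells or plastids and less plastid RNA per cell cannot be told apart either.

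**Figure D2:**
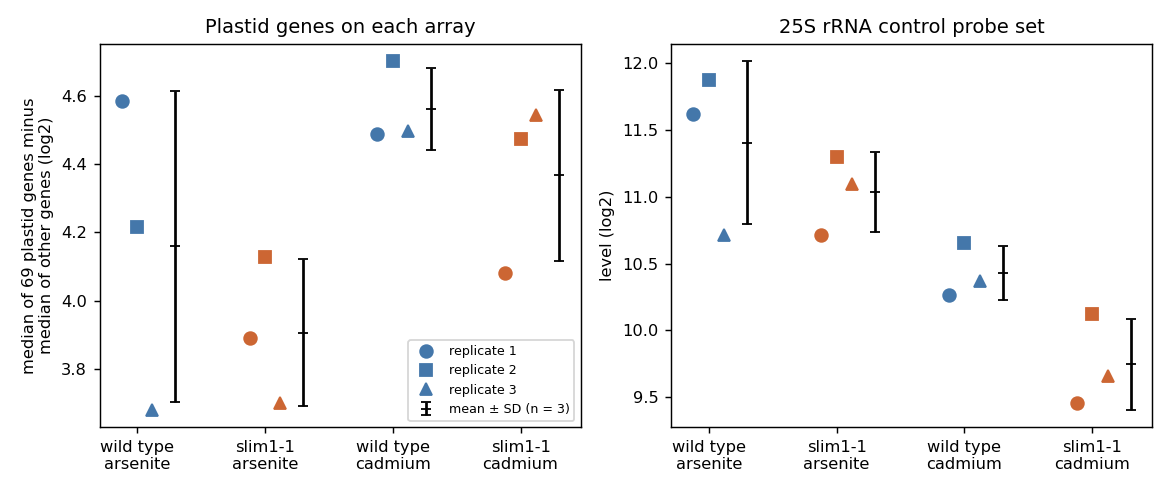
Left, the median of the 69 plastid genes minus the median of all other genes on each array (log2); right, the level of the 25S rRNA control probe set (log2). Points are arrays, with replicates by shape, and black bars give the group mean ± SD (n = 3). The genotypes overlap in plastid genes under both metals, while 25S rRNA under cadmium does not overlap.

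Photosystem II splits water and passes electrons to the plastoquinone pool, and 15 of its genes were measured. Of these, 12 were lower in slim1-1 under arsenite (median -0.10) and 13 under cadmium (median -0.14), with 0 past the threshold. The gene psbA encodes the D1 reaction centre protein, which is damaged by light and constantly replaced. Under cadmium psbA measured 11.34, 11.24 and 11.05 in wild type and 10.64, 10.60 and 10.55 in slim1-1. All mutant arrays lay below all wild-type arrays. The difference was -0.61 ± 0.26 (SE, adjusted p = 0.16). Under arsenite psbA measured 11.41, 10.53 and 9.95 in wild type and 10.16, 10.57 and 10.14 in slim1-1. The wild-type arrays spanned the mutant ones, and the difference was -0.34 ± 0.26 (adjusted p = 0.653).

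The spread among arsenite arrays entered the error used for psbA under cadmium, because the fit pools all 4 groups. With the 6 cadmium arrays fitted alone, psbA passed, at -0.61 ± 0.09 (limma adjusted p = 0.0042, 95% confidence interval -0.81 to -0.41). So did ndhE, at -0.80 ± 0.13 (adjusted p = 0.00789). These were 2 of 69 members (2.9%), in a fit that called 10.9% of all genes, so the share of plastid genes called stayed below the background. At an unadjusted p under 0.05 this fit had 12 of 69 members lower, a larger share than the 12.8% of all genes. It had 1 of 69 higher, a smaller share than the 13.2% of all genes. The 6 arsenite arrays alone called 0 of 69 members in limma, and called 0.105% of all genes. At an unadjusted p under 0.05 that fit had 2 of 69 members lower and 1 of 69 higher, smaller shares than the 5.72% and 6.27% of all genes.

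The small photosystem II gene psbN, whose product acts in assembly of the complex, is read from the strand opposite to the psbB transcription unit in which it lies. It was the member with the largest positive difference under arsenite. Under arsenite psbN measured 8.62, 9.02 and 8.22 in wild type and 9.26, 9.20 and 9.03 in slim1-1. The groups did not overlap, though mutant replicate 3 and wild-type replicate 2 nearly met, and the difference was 0.55 ± 0.21 (adjusted p = 0.275). Under cadmium it measured 8.30, 8.26 and 8.04 in wild type and 7.30, 8.09 and 7.97 in slim1-1, where the groups overlapped and mutant replicate 1 was far below the rest. The difference there was -0.41 ± 0.21 (adjusted p = 0.227). Its neighbours psbB, psbT and psbH, on the other strand, had arsenite differences of -0.12, 0.04 and -0.22.

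Photosystem I, which reduces ferredoxin, was represented by 7 genes for subunits and assembly factors. Of these, 4 were lower under arsenite (median -0.06) and 5 under cadmium (median -0.22). The gene psaA, for a reaction centre subunit, was the only member with non-overlapping groups in the higher direction under cadmium. It measured 6.26, 6.75 and 6.24 in wild type and 6.81, 6.83 and 6.76 in slim1-1. Mutant replicate 3 and wild-type replicate 2 differed by little, and the difference was 0.38 ± 0.27 (adjusted p = 0.416). Under arsenite psaA measured 9.41, 9.25 and 8.23 in wild type and 8.68, 9.20 and 8.35 in slim1-1, with overlapping groups (-0.22 ± 0.27, adjusted p = 0.822). The gene psaB, which follows psaA in the same transcription unit and encodes its partner subunit, had differences of -0.06 and 0.03.

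The cytochrome b6f complex links both photosystems. Of its 6 genes, 5 were lower under arsenite (median -0.10) and 4 under cadmium (median -0.17). Its cytochrome b6 gene petB was nearly level, at -0.06 ± 0.08 under arsenite (adjusted p = 0.82) and 0.04 ± 0.08 under cadmium (adjusted p = 0.8). The most displaced was petL, a small stabilising subunit, at -0.44 ± 0.29 and -0.52 ± 0.29 (adjusted p = 0.592 and 0.287).

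The plastid ATP synthase makes ATP from the proton gradient. Of its 6 genes, 5 were lower under arsenite (median -0.13) and 6 under cadmium (median -0.18). The gene atpB, for the catalytic beta subunit, had the narrowest interval among the genes plotted, at -0.05 ± 0.07 under arsenite (adjusted p = 0.853) and -0.04 ± 0.07 under cadmium (adjusted p = 0.777). The 95% confidence intervals ran from -0.19 to 0.10 and from -0.18 to 0.11. The gene atpI, for a membrane subunit, varied most. It measured 6.62, 6.91 and 6.68 in wild type under cadmium and 5.18, 6.22 and 6.67 in slim1-1. Mutant replicate 1 was far below the others and replicate 3 was level with wild type, so the difference of -0.72 ± 0.36 did not pass (adjusted p = 0.235).

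The NDH complex carries electrons around photosystem I, and 10 of its genes were measured. Of these, 8 were lower under each metal, with medians of -0.16 and -0.15. The gene ndhE, for a membrane subunit, had the largest negative difference of all members under cadmium. It measured 8.01, 8.01 and 7.71 in wild type and 6.86, 7.13 and 7.36 in slim1-1. Every mutant array lay below every wild-type array, a 1.74-fold difference in level (-0.80 ± 0.28, adjusted p = 0.0836). Under arsenite it measured 8.11, 7.57 and 7.34 in wild type and 7.63, 7.53 and 6.42 in slim1-1, with overlap and a low mutant replicate 3 (-0.48 ± 0.28, adjusted p = 0.508). The cadmium difference of ndhE passed in the fit without mutant arsenite replicate 3 (adjusted p = 0.0127), an array that enters it only through the pooled spread, and that of psbA without wild-type arsenite replicate 1 (adjusted p = 0.0235). The gene ndhK, for a subunit of the connecting module, was also lower without overlap under cadmium (-0.33 ± 0.14, adjusted p = 0.16). The gene ndhF had differences of 0.14 ± 0.17 and 0.03 ± 0.17 (adjusted p = 0.811 and 0.938), with 1 of its 12 values below the lower quartile of its array.

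Rubisco fixes carbon dioxide, and rbcL encodes its large subunit. Under arsenite rbcL measured 11.16, 11.25 and 10.82 in wild type and 11.21, 11.02 and 10.77 in slim1-1. Under cadmium it measured 10.25, 10.43 and 10.25 in wild type and 10.10, 10.37 and 10.28 in slim1-1. The genotypes overlapped under both metals. The differences were -0.07 ± 0.13 (adjusted p = 0.886) and -0.06 ± 0.13 (adjusted p = 0.826), with 95% confidence intervals of -0.36 to 0.21 and -0.34 to 0.22.

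**Figure D3:**
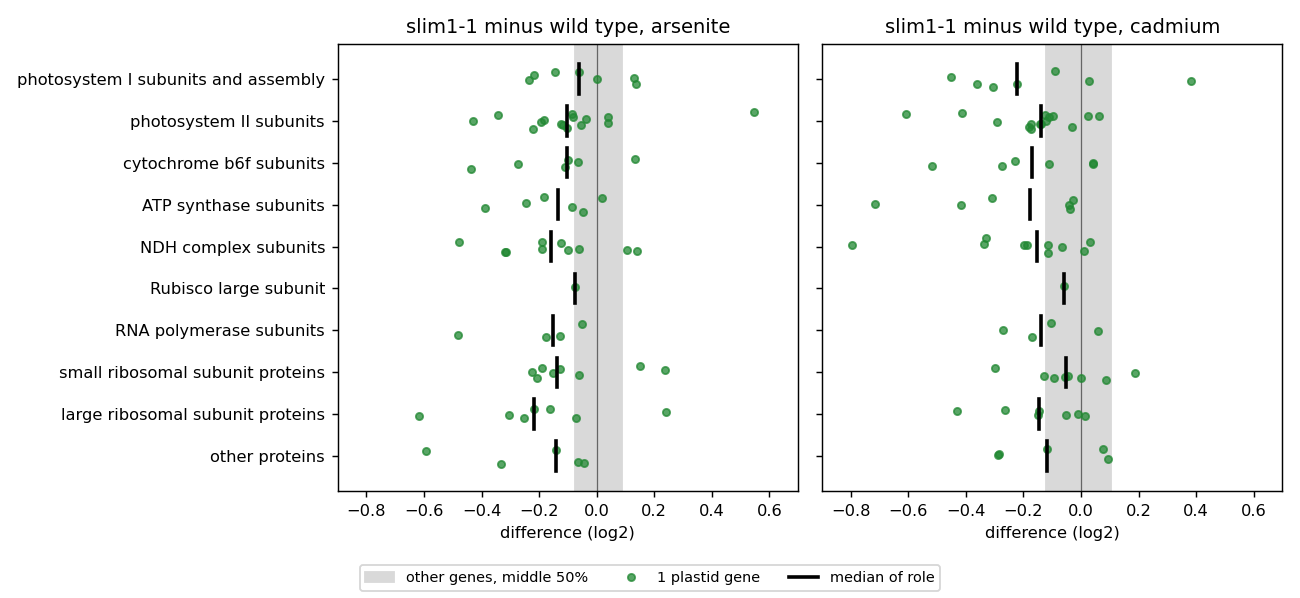
Genotype difference (slim1-1 minus wild type, log2) of each of the 69 plastid genes by role under arsenite (left) and cadmium (right), with the median of each role as a black bar. The grey band holds the middle 50% of all other genes. All role medians lie left of 0 under both metals, and most lie left of the band.

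The plastid-encoded RNA polymerase has its core subunits in rpoA, rpoB, rpoC1 and rpoC2. All 4 had negative differences under arsenite (median -0.15) and 3 under cadmium (median -0.14). The most displaced was rpoC2, at -0.48 ± 0.25 and -0.27 ± 0.25 (adjusted p = 0.457 and 0.549). The gene rpoA differed by -0.13 ± 0.13 and -0.17 ± 0.13 (adjusted p = 0.771 and 0.466). The gene rpoB lay below the lower quartile of its array on 6 of 12 arrays and may not exceed background there, and its differences were -0.05 and 0.06.

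Of 8 measured genes for proteins of the small ribosomal subunit, 6 were lower under each metal, with medians of -0.14 and -0.05. Of 7 for the large subunit, 6 were lower under each metal, with medians of -0.22 and -0.15. The gene rpl20 had the largest negative difference of all members under arsenite. It measured 9.24, 8.77 and 8.13 in wild type and 8.26, 8.40 and 7.63 in slim1-1. The groups overlapped because wild-type replicate 3 was low (-0.62 ± 0.25, adjusted p = 0.312). Under cadmium rpl20 measured 8.05, 7.98 and 7.65 in wild type and 7.23, 7.54 and 7.62 in slim1-1, without overlap by a narrow margin (-0.43 ± 0.25, adjusted p = 0.309). The gene rps16 had positive differences under both metals, 0.24 ± 0.25 and 0.19 ± 0.25 (adjusted p = 0.773 and 0.697).

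Other plastid genes serve fatty acid synthesis, protein turnover, splicing and membrane assembly. The gene accD encodes a subunit of acetyl-CoA carboxylase, which starts fatty acid synthesis, and is read by the nuclear-encoded polymerase. Under arsenite accD measured 9.62, 9.10 and 8.77 in wild type and 8.72, 8.72 and 8.27 in slim1-1. Under cadmium it measured 8.02, 8.21 and 7.94 in wild type and 7.80, 7.72 and 7.78 in slim1-1. It was the only member with every mutant array below every wild-type array under both metals, although mutant replicates 1 and 2 lay just under wild-type replicate 3 in the arsenite set. The differences were -0.59 ± 0.18 (adjusted p = 0.153) and -0.29 ± 0.18 (adjusted p = 0.336).

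The gene ccsA, which acts in attaching heme to cytochromes, measured 12.52, 12.43 and 12.20 in wild type and 12.01, 12.13 and 12.02 in slim1-1 under arsenite. The groups did not overlap (-0.33 ± 0.11, adjusted p = 0.2), and under cadmium the difference was -0.12 ± 0.11 (adjusted p = 0.552). The protease gene clpP differed by -0.14 ± 0.10 and 0.09 ± 0.10 (adjusted p = 0.63 and 0.621). The splicing factor gene matK differed by -0.04 ± 0.18 and 0.08 ± 0.18 (adjusted p = 0.96 and 0.846).

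**Figure D4:**
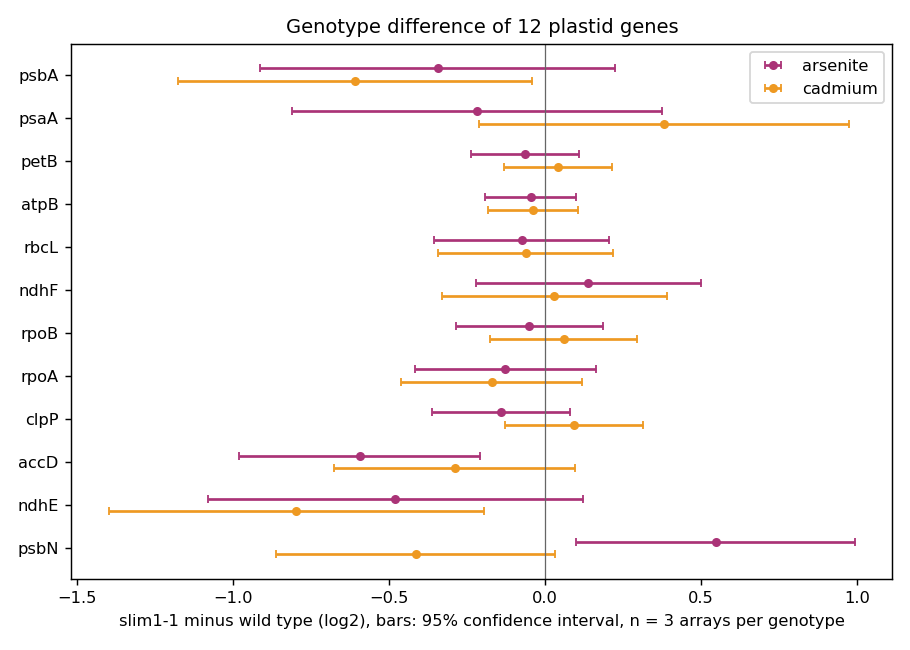
Genotype difference (slim1-1 minus wild type, log2) of 12 plastid genes under arsenite and cadmium, with 95% confidence intervals from the fit over all 12 arrays (n = 3 arrays per genotype). Intervals of accD and psbN under arsenite and of psbA and ndhE under cadmium exclude 0 before adjustment for 13356 genes, and none passed after it.

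Counts of non-overlapping groups were near or under the background. Under arsenite 2 members, accD and ccsA, were lower without overlap (2.9% of members, against 8.25% of all genes), and psbN was higher without overlap (1.45%, against 9.95%). Under cadmium 11 members were lower without overlap (15.9%), a share near the 15.6% of all genes, and 1 was higher (1.45%, against 15.6%). The 11 were psbA, psbE, psbF, atpF, ndhA, ndhE, ndhI, ndhK, rpl20, accD and cemA.

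Genes transcribed together were compared next. Of 15 transcription units with 2 or more members, 9 had only negative differences under arsenite, 0 only positive ones and 6 both. Under cadmium 8 had only negative differences, 2 (the psaA and psbK units) only positive ones and 5 both. In the ribosomal protein unit that ends in rpoA, the 7 members outside the inverted repeat ran from -0.25 to -0.07 under arsenite and from -0.26 to 0.01 under cadmium. Its inverted-repeat genes rpl2 and rpl23 had 0.02 and -0.04 under arsenite. In the unit of rps2, atpI, atpH, atpF and atpA, 4 of 5 were lower under arsenite and 5 of 5 under cadmium, where they ran from -0.72 for atpI to -0.03 for atpA. The 3 genes of the psaA unit were all positive under cadmium, from 0.03 for psaB to 0.38 for psaA, and 2 of the 3 were negative under arsenite. With 3 arrays per group these unit patterns are given as values only.

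The spread was widest for members of low signal. With members split into 3 equal parts of 23 by mean level over all arrays, the median residual SD was 0.38 in the lowest part, 0.28 in the middle and 0.14 in the highest. The median arsenite difference was -0.14, -0.18 and -0.10 in that order, and the median cadmium difference was -0.27, -0.14 and -0.07. In the highest part, which holds atpE, atpB, psbM and ndhI, 22 of 23 were lower under arsenite and 18 of 23 under cadmium.

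The genotype difference was then compared between metals by the interaction of genotype and metal, from which any constant offset between the sets drops out. No plastid gene passed in limma (0 of 69, with 4.3% of all genes past the threshold, 2.1% in the lower direction). At an unadjusted p under 0.05, 1 member (1.45%) was lower and 0 were higher, against 9.65% and 8.81% of all genes. That member was psbN, whose cadmium difference lay below its arsenite difference by 0.96 on the log2 scale (interaction -0.96 ± 0.29, adjusted p = 0.0914, 95% confidence interval -1.59 to -0.33). The next were atpI at -0.73 ± 0.51 (adjusted p = 0.499) and psaA at 0.60 ± 0.39 (adjusted p = 0.456). Over the 69 genes the median interaction was -0.01, beside -0.02 in all other genes. A median of members beyond other genes of 0.01 moved to 0.18 without wild-type arsenite replicate 3 and to -0.11 without mutant arsenite replicate 3.

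Averaged over both metals, 58 of 69 members were lower in slim1-1 (84.1%, against 51.7% of all other genes). The median was -0.13, where all other genes had -0.004. Of the 69, 1 passed, accD (1.45%, where 8.12% of all genes passed). The averaged difference of accD was -0.44 ± 0.13 (limma adjusted p = 0.049995), a value at the threshold itself. The call was lost in 11 of the 12 fits that each left out 1 array (adjusted p from 0.0522 to 0.106). It held without wild-type arsenite replicate 3 (adjusted p = 0.015), where 6 members passed (8.7%, against 6.59% of all genes in that fit): rpl20, accD, rpoC1, rpoC2, psbA and ndhH. At an unadjusted p under 0.05, 12 members were lower on average (17.4%, against 11% of all genes) and 0 were higher (against 12.6%).

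Between metals the deposited values hold a step, so cadmium minus arsenite is given relative to the median over all genes (-1.14 in wild type and -1.16 in slim1-1), with no test. Relative to that step, 44 of 69 members were higher under cadmium in wild type and 40 of 69 in slim1-1, with medians of 0.15 and 0.20. The gene ndhD, for a membrane subunit of the NDH complex, stood apart and was picked after its values were seen. It measured 9.31, 9.15 and 8.07 in wild type and 8.97, 9.17 and 8.71 in slim1-1 under arsenite. Under cadmium it measured 10.38, 10.55 and 10.16 in wild type and 10.36, 10.24 and 10.52 in slim1-1. Its deposited level was higher under cadmium although most genes were lower, so relative to the step it was higher by 2.66 in wild type and 2.58 in slim1-1. Its place among all 13356 genes went from percentile 82.7 to 98.3 in wild type and from 84.7 to 98.4 in slim1-1.

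Other plastid genes took different places too. The gene psbA was higher by 1.71 and 1.47 relative to the step, whereas psaA was lower by -1.41 and -0.78 and rpl16 by -1.01 and -0.88 (wild type first). Of the 8 measured genes of the transcription unit that holds ndhD, 7 were above the step in each genotype. Among them ndhE was higher by 1.38 and 1.08, while ndhH, in the same unit, was below the step, at -0.70 and -0.69. Between genotypes ndhD was level, at 0.11 ± 0.25 under arsenite and 0.01 ± 0.25 under cadmium (adjusted p = 0.917 and 0.987). Metal, dose and set of arrays cannot be told apart in these values.

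**Figure D5:**
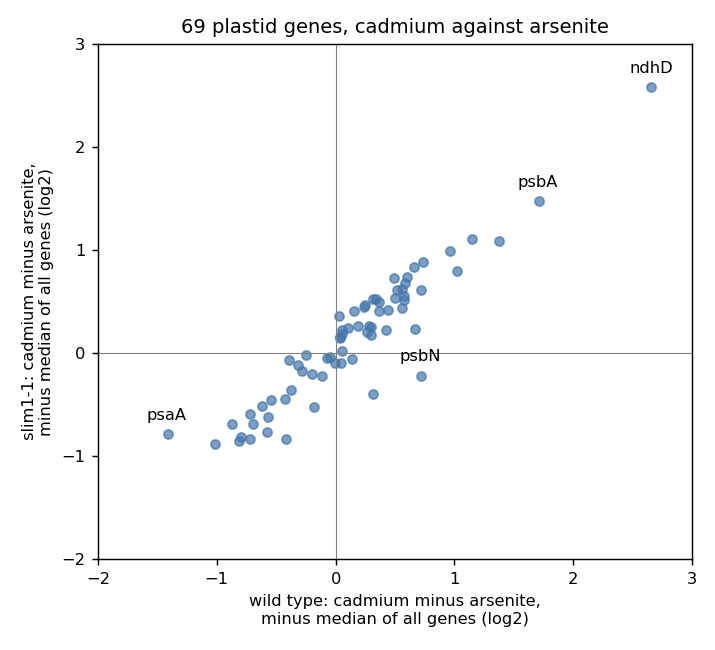
Cadmium minus arsenite level of each of the 69 plastid genes, minus the median over all genes (log2), in wild type (horizontal) and slim1-1 (vertical). The gene ndhD lies at 2.66 and 2.58, apart from the rest, with psbA next and psaA lowest in wild type. The gene psbN is among the few that differ in sign.

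Nuclear genes of the same complexes and the other organelle were read beside the members. Of 46 nuclear photosynthesis genes chosen by name, 7 were measured, among them PSAE1, PSBW and LHCB4.1. In limma 0 of the 7 passed under either metal, where 1.05% of all genes passed under arsenite and 12.3% under cadmium. At an unadjusted p under 0.05, 1 was lower under arsenite, against 5.81% of all genes. Under cadmium 0 were lower or higher, against 13.1% of all genes each way. Their median was -0.06 under arsenite and 0.03 under cadmium. Under arsenite 3 of 7 were lower without overlap (against 8.25% of all genes), and under cadmium 2 of 7 were higher without overlap (against 15.6%). Their median minus that of other genes on an array was 6.68 to 6.76 in slim1-1 under arsenite. In wild type it was 6.81 to 6.93, so the groups did not overlap. Under cadmium they overlapped, at 7.34 to 7.47 and 7.35 to 7.42. Of 29 nuclear genes for plastid ribosomal proteins, 6 were measured, with medians of -0.06 and -0.06. None of them passed the threshold, beside the same 1.05% and 12.3% of all genes. At an unadjusted p under 0.05 there were 0 under arsenite. Under cadmium 1 was lower, against 13.1% of all genes. Of these 6, 4 were lower under arsenite and 6 under cadmium. Their median minus that of other genes overlapped between genotypes under arsenite. Under cadmium it was 5.48 to 5.52 in slim1-1 and 5.53 to 5.65 in wild type, without overlap by a narrow margin. Of 21 nuclear regulators of plastid transcription only RPOTmp, a phage-type polymerase, was measured (0.04 ± 0.08 and -0.13 ± 0.08, adjusted p = 0.889 and 0.322), and of 17 factors of plastid RNA maturation 0 were.

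Of 11 mitochondrial genes, 0 passed under arsenite in limma, where 1.05% of all genes passed, with a median of -0.09. At an unadjusted p under 0.05 there were 0 too, against 5.81% of all genes lower and 7.04% higher. Under cadmium 2 of 11 rose, nad6 (1.01 ± 0.20, adjusted p = 0.00671) and cox2 (0.53 ± 0.16, adjusted p = 0.0454), with a median of 0.11, where 12.3% of all genes passed. At an unadjusted p under 0.05, 5 of the 11 were higher and 1 was lower under cadmium, against 13.1% and 13.1% of all genes. Both nad6 and cox2 encode subunits of respiratory complexes. The plastid median under cadmium was -0.12, on the other side of 0, and the difference between the organelles was not tested. The root hair expansin genes EXPA7 and EXPA18, the 2 measured of 11 root markers, differed by 0.41 and 0.50 under cadmium (smallest adjusted p 0.138), and by 0.02 and -0.03 under arsenite. Both were higher at an unadjusted p under 0.05 in limma under cadmium, as were 13.1% of all genes. There EXPA7 was 4.06 to 4.08 in slim1-1 and 3.36 to 4.01 in wild type, without overlap, while EXPA18 overlapped. The share of root and shoot in the seedlings was not tested.

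The 7 inverted-repeat genes, whose probe sets read both copies, were read apart. Of these, 4 were lower under arsenite and 5 under cadmium, with medians of -0.04 and -0.04. In limma 0 of 7 passed, where 1.05% of all genes passed under arsenite and 12.3% under cadmium. The smallest adjusted p was 0.474 and 0.275. The ribosomal protein gene rps12 was the most displaced, at -0.35 ± 0.19 under each metal.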

How the data were processed

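Total RNA of 12 whole-seedling samples was labelled with biotin and hybridised to Affymetrix arrays, per the labels' protocols. The deposited log2 values were made by the authors with RMA, per the submitters' processing notes (its version was not given in those notes). Of 22810 probe sets, 64 controls were left out, 13513 are listed with 1 gene, 503 with several and 8730 are not listed in the probe table. Keeping the probe set of highest mean left 13356 genes, of which 13286 matched the RefSeq table of TAIR10.1. Mitochondrial genes were matched by symbol.

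A model with 1 mean for each of the 4 groups was fitted to all 12 arrays together (lmFit and eBayes of limma 3.58.1, R 4.3.3). All 13356 genes entered the Benjamini-Hochberg adjustment of the two-sided tests, and 0.05 was the threshold. Intervals are moderated 95% confidence intervals. RMA values carry no detection call. Precision is limited by having 3 arrays a group. The fit was tested on simulated data in which each gene varied on its own. That test does not cover genes that move together from array to array, as the plastid genes did.

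The members, roles and gene lists were chosen with earlier results of these data known. Full statistics were planned for the 6 most positive and 6 most negative called members per comparison and, whatever their p, for psbA, psaA, petB, atpB, rbcL, ndhF, rpoB, rpoA, clpP, accD and ycf2 (an inverted-repeat gene, so no member); other members are named from their values. Alternatives covered the replicate block, scaling, spread, weights, filters, probe set choice and single arrays. Sequences were not used here.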

Additional observations from a re-analysis of the deposited data

How the results depend on the processing

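The count of plastid genes past the threshold under arsenite was 0 in every fit except 1 without wild-type replicate 3. It ranged from 0 to 1 over fits without a single array. That 1 was 1.45% of members, against 0.659% of all genes in that fit. Under cadmium the count was 0, where 12.3% of all genes passed. It became 1 with the replicate block (1.45%, against 7.63% of all genes) and 1 with array weights (1.45% against 16.3%), ndhE both times. With the cadmium arrays fitted alone it was 2, ndhE and psbA (2.9% against 10.9%). Without a single array it ranged from 0 to 1. It was 1 without mutant arsenite replicate 3 (1.45% against 13.4%) or wild-type arsenite replicate 1 (1.45% against 10.9%). The interaction gave 0 in every fit run, single arrays left out included. The average over both metals gave 1 of 69 (1.45%, with 8.12% of all genes called), and 4 with the replicate block (5.8% against 4.69%), 3 with arrays shifted to a common median (4.35% against 10.2%), 2 with array weights (2.9% against 15.5%), 2 of 65 among genes above the median level (3.08% against 17%), 0 with quantile normalization, 0 with a trend and robust spread, 0 with the mean of all probe sets, and 0 to 6 without a single array (0 for 9 of the 12 arrays, 6 without wild-type arsenite replicate 3). Of alternatives chosen after seeing the data, it gave 6 without both arsenite replicates numbered 3 (8.7% against 7.94%) and 0 with the inverted-repeat genes added. Without a single array the medians beyond other genes ranged from -0.31 to -0.02 under arsenite, from -0.16 to -0.02 under cadmium and from -0.11 to 0.18 for the interaction. In every fit they moved by less than 1 SD of the array values (0.36, 0.20 and 0.29 in that order). That SD is larger than the medians themselves (-0.13, -0.11 and 0.01), so staying within it does not show that they are stable. The arsenite median was -0.06 with array weights and -0.18 without both arsenite replicates numbered 3. Of 783 recomputed values of named genes, 763 kept their side of the threshold and 20 did not (accD averaged, ndhE and psbA under cadmium), and 40 uncalled values changed sign. Gene-wise deviations of same-numbered arrays had r over all genes from -0.33 to 0.03 under arsenite and from -0.0078 to 0.095 under cadmium, and over members from -0.10 to 0.27 and from -0.045 to 0.15. Plastid genes were low as a whole on replicate 3 of both genotypes under arsenite, a shift that this r does not measure. The labels tie no numbers together, so no pairing was used. The replicate block ended no call of a member, though only accD averaged had been called without it. Over all genes the block lowered the number called from 140 to 85 under arsenite and from 1646 to 1019 under cadmium. For the interaction it went from 574 to 267. Signals near background, such as rpoB, limit what these arrays can show.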
